A study of Mus musculus with 20 samples.

Results

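The transcripts described here are 9 genes of fatty acid handling that answer to peroxisome proliferator-activated receptors (PPARs), measured by RNA-seq in mouse RPE–choroid. They are the receptor genes *Ppara* and *Ppard* and the target genes *Angptl4*, *Lpl*, *Cd36*, *Plin2*, *Cpt1a*, *Acadm* and *Pdk4*. The genes were chosen by symbol from the 24411 genes of the deposited table, and all 9 were found and passed the filter on low values. The choice was made with earlier results of these data known, among them the higher *Angptl4* in VAS *Stra6-/-* than in VAS WT. The lists of other genes used below were chosen likewise. Values of VAS *Stra6-/-* against VAS WT are therefore given as a description, without p-values, for these genes and for the lists. Which values of the other comparisons were known is not recorded, so counts and medians there are a description too. None of the 9 encodes an enzyme that makes ketone bodies, and those enzymes were taken from a separate list.

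Outer eyecups came from mice labelled C57BL/6, either WT or *Stra6-/-*. By the study's methods the WT mice were bought and the *Stra6-/-* mice, on C57BL/6J, bred in house, so they were not littermates. After weaning at about 28 days they ate a vitamin A sufficient (VAS, 4 IU/g) or vitamin A deficient (VAD, 0 IU/g) diet for 12 weeks. The 4 groups, VAS WT, VAD WT, VAS *Stra6-/-* and VAD *Stra6-/-*, have 5 libraries each, every library holding both eyecups of 1 mouse by the study's methods. Before weaning all mice had the same chow. STRA6 is the receptor through which the RPE takes up retinol from its blood carrier. Values are gene counts divided by 1 size factor per library and are called normalized values. The reads behind them numbered 13331903 to 21878614 per library. Replicates are listed in the order 1 to 5 throughout.

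Some libraries stood apart from their labels. *Stra6* was 564 to 694 in VAS *Stra6-/-* against 2414 to 2742 in VAS WT, but 1973 to 2393 in the libraries labelled VAD *Stra6-/-*, above all 5 VAD WT libraries (669 to 1529). *Xist* is made from the inactive X chromosome and *Ddx3y* is Y-linked. VAS WT had *Ddx3y* with *Xist* at 38.4 or less, and VAS *Stra6-/-* had *Xist* with *Ddx3y* at 1.02 or less. Every library labelled VAD *Stra6-/-* held both, *Xist* at 3570 to 4280 and *Ddx3y* at 741 to 970. Genotype and sex therefore cannot be told apart on the VAS diet. Between the groups labelled *Stra6-/-*, diet likewise cannot be told apart from the differences in *Stra6* and in the sex-linked genes. Between the VAD groups the genotype label cannot be told apart from such differences either. Both sex-linked genes in a library go against the stated 1 mouse per library. Whether the libraries labelled VAD *Stra6-/-* stand for separate mice is therefore not known. VAD WT replicates 2 and 4 had *Xist* at 10912 and 11767 with *Ddx3y* at 75.2 and 80.5. The other 3 had *Xist* at 174 to 234 with *Ddx3y* at 1041 to 1133. Each VAD WT library thus also held some of both genes. Whether these stand for separate mice is likewise not known, and diet in WT cannot be told apart from the sex-linked differences. Fold changes of the 9 genes against VAD WT are therefore also given without replicates 2 and 4. So are list counts and other genes that move by over 1.5 times. Of the tissue markers, the sum over 10 RPE genes was 114888 to 131556 in VAS WT, 33622 to 67785 in VAD WT, 127230 to 132871 in VAS *Stra6-/-* and 508442 to 547595 in the libraries labelled VAD *Stra6-/-*. The sum over 10 surface epithelium and cornea genes ran the other way, at 351779 to 995773 across the first 3 groups and 25248 to 33146 in the last.

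PPARs are nuclear receptors that bind fatty acids and their derivatives and act as a pair with a retinoid X receptor (RXR), the partner they share with retinoic acid receptors. Their targets release fatty acids from lipoproteins, bring them into the cell, store them in droplets and burn them in mitochondria and peroxisomes. The RPE takes in lipid each day with the shed tips of photoreceptors, oxidizes it and can pass ketone bodies made from it to the retina. The pair binds a direct repeat of the half-site AGGTCA, with 1 base of any kind (N) between the 2 copies.

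The RefSeq promoter windows (GRCm38.p6, 250 bases before to 50 after the start) were searched on both strands for that repeat, over its 12 fixed bases. A window was at hand for 7 of the 9 genes, not for *Angptl4* or *Lpl*. Shown are the sites of the 2 genes with the fewest mismatches, *Plin2* and *Cd36*, and that of *Pdk4*. No link between the matches and the levels of the genes was tested. Each is read 5′ to 3′ on the strand with the match, and capitals mark the 13 bases compared.
Plin2: tctgacttAGGTCAGGGGTCCtgaaagct
Cd36: atccaagtAAGTCAGAGGCCAgagaacca
Pdk4: aagggaggAGCCCAAAGTTCTttctctga
The capitals of *Plin2* lie at chr4:86670272-86670284, beginning 225 bases before the start on the strand opposite to the gene, with 2 mismatches. Those of *Cd36* lie at chr5:17835947-17835959, beginning 63 bases before the start on the opposite strand, also with 2 mismatches. At most 2 mismatches occurred in 3.86% of all 32851 promoter windows. The *Pdk4* stretch at chr6:5496422-5496434, on the strand of the gene, had 4 mismatches, which 79.8% of windows reach. *Acadm* had 3 mismatches, *Cpt1a* and *Ppara* 4 and *Ppard* 5. These are matches of letters in short windows, not measured binding.

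To compare genes, levels were set per kb of exon, joining the exons of all annotated transcripts (10478 bases for *Lpl*, 3541 for *Angptl4*). The transcripts expressed may be shorter, so the order of genes also depends on the annotation. On this scale the level in VAS WT was highest for *Acadm* at 700.3 ± 43.2 (SD, n = 5). Next came *Cpt1a* at 296 ± 20.9, *Plin2* at 215 ± 10.1, *Lpl* at 94.1 ± 6.05 and *Ppard* at 82.6 ± 10.7. *Cd36* at 60.1 ± 8.31 and *Angptl4* at 58.8 ± 7.53 were within each other's spread, above *Ppara* at 41.6 ± 11.8 and *Pdk4* at 20.7 ± 5.09. In the libraries labelled VAD *Stra6-/-* the order had changed: *Plin2* at 619.9 ± 57.4 was the highest, above *Cpt1a* at 463 ± 33.1 and *Acadm* at 445 ± 35.5, whose spreads overlapped. *Angptl4* followed at 332 ± 35.7 and *Cd36* at 250.2 ± 15.7, while *Ppara* was the lowest at 48.8 ± 9.41.

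**Figure D1:**
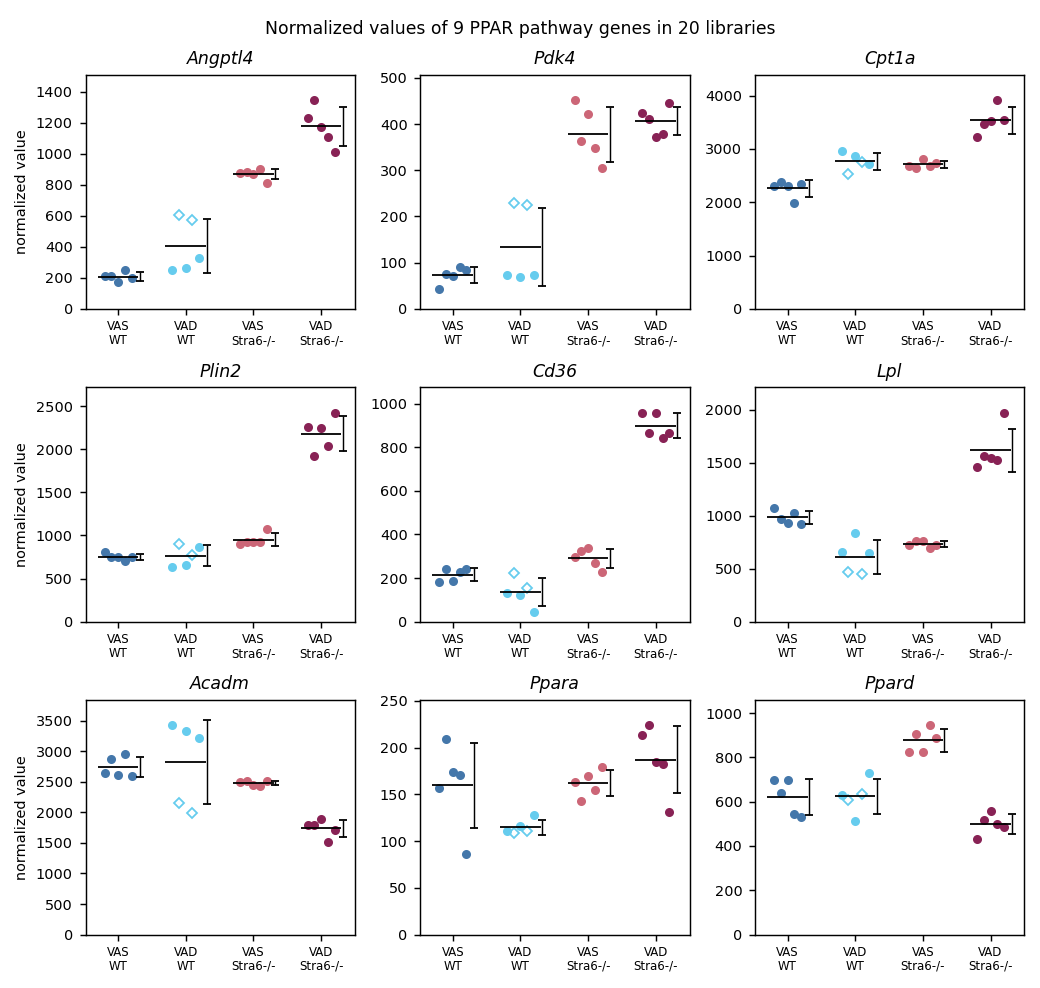
Normalized value (vertical axis, linear from 0) of each of the 9 genes in the 20 libraries, by group; points are libraries, open diamonds are VAD WT replicates 2 and 4, the horizontal line is the group mean and the bar beside it 1 SD. *Plin2*, *Cd36* and *Lpl* are highest in the libraries labelled VAD *Stra6-/-*, *Angptl4* and *Pdk4* are high in both groups labelled *Stra6-/-*, and *Acadm* and *Ppard* are lowest in the libraries labelled VAD *Stra6-/-*.

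Differences were tested with limma on log2(value + 1), with Benjamini-Hochberg adjustment over 18807 genes, and a gene is called higher or lower at an adjusted p under 0.05. Between VAD WT and the libraries labelled VAD *Stra6-/-*, all 9 genes were called, as were 55.9% of all genes. In the latter 7 were higher, where 26.2% of all genes were, and 2 (*Acadm* and *Ppard*) lower, where 29.6% were. Between the groups labelled *Stra6-/-*, 6 of the 9 were called (53.2% of all genes), 4 higher on the VAD label (24.4%) and 2 lower (28.8%). VAD WT against VAS WT had 3 calls (8.78% of all genes): *Angptl4* and *Cpt1a* were higher (3.29%) and *Lpl* lower (5.50%). Without VAD WT replicates 2 and 4 it had 5 calls, and 37.9% of all genes were then called. In VAS *Stra6-/-* against VAS WT, a comparison known when the genes were chosen, 6 were called (26.6% of all genes), 5 higher (15.9%) and 1 lower (10.8%), from which nothing is read. The genotype-by-diet interaction is the difference between the VAD groups minus that same VAS difference, so it too is a description here: it was past the threshold for 5 genes (44.2% of all genes), upward for 3 (19.5%) and downward for 2 (24.8%), from which nothing is read either. The median log2 fold change of the 9 genes between the VAD groups was 1.43, against -0.05 for all genes. Counts of list genes below are a description too, to be read beside the shares of the same comparison.

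Setting the libraries labelled VAD *Stra6-/-* against VAD WT replicates 1, 3 and 5 only, all 9 genes were again called, 7 higher and 2 lower, with 63.1% of all genes called. *Pdk4* moved most, to a log2 fold change of 2.48 (SE 0.19, adjusted p = 2.33e-10, limma), followed by *Angptl4* at 2.07 (SE 0.11, adjusted p = 4.52e-13, limma) and *Cd36* at 3.32 (SE 0.24, adjusted p = 8.71e-11, limma). *Plin2* was 1.61, *Lpl* 1.18, *Ppara* 0.64, *Cpt1a* 0.31, *Ppard* -0.31 and *Acadm* -0.94 on the same scale. Of the 9, *Pdk4* alone had a fold that differed by over 1.5 times from that on all 5 libraries.

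Groups without overlap gave much the same picture. All 5 libraries labelled VAD *Stra6-/-* lay above all VAD WT libraries in 7 genes (18.3% of all genes) and below them in *Acadm* (19.0%). Against VAS *Stra6-/-* they lay above in 5 genes (24.5% of all genes), *Angptl4* included, and below in 2 (26.8%). VAD WT lay above VAS WT in *Angptl4* and *Cpt1a* (2.13% of all genes) and below in *Lpl* (4.21%). VAS *Stra6-/-* lay above VAS WT in 5 genes (19.3%) and below in *Lpl* and *Acadm* (13.2%), again as a description.

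**Figure D2:**
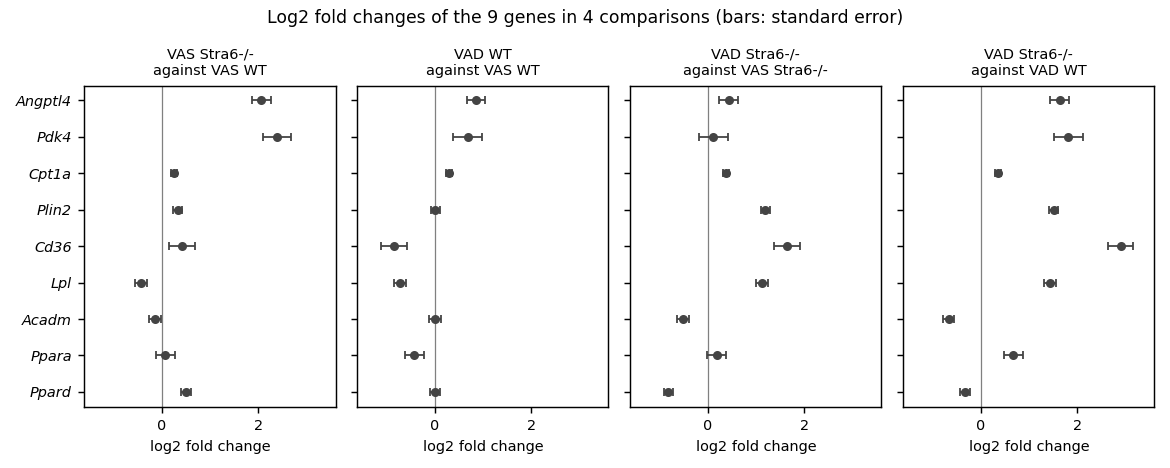
Log2 fold change (horizontal axis) of the 9 genes in 4 comparisons; points are limma estimates and bars their standard errors. In the right-hand panel 7 genes lie right of 0, *Cd36* farthest at 2.90, and *Acadm* and *Ppard* left of 0; *Pdk4* is near 0 (0.12) only between the groups labelled *Stra6-/-*.

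The receptor genes moved in opposite directions. *Ppara* encodes PPARα, the main activator of fatty acid oxidation genes. Its values were 157, 209.5, 174, 171 and 86.6 in VAS WT and 111, 108, 116, 110.4 and 127 in VAD WT. They were 164, 143, 169.8, 155 and 179 in VAS *Stra6-/-* and 214, 224, 184, 183 and 131 in the libraries labelled VAD *Stra6-/-*. The libraries labelled VAD *Stra6-/-* all lay above VAD WT, with the lowest at 131 just over the highest VAD WT value of 127, a log2 fold change of 0.68 (SE 0.19, adjusted p = 0.00507, limma). *Ppara* did not pass the test between VAD WT and VAS WT (log2 fold change -0.42, SE 0.19, adjusted p = 0.21, limma), but without VAS WT replicate 5, the low library of its group, it did (-0.62, adjusted p = 0.0168, limma). VAS *Stra6-/-* and VAS WT overlapped, with a log2 fold change of 0.07 (SE 0.19).

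*Ppard* encodes PPARδ, the more widely expressed receptor. It stood at 696, 638, 695, 544 and 529 in VAS WT and at 632, 608, 512, 634 and 730.5 in VAD WT, with overlapping ranges. VAS *Stra6-/-* had 823, 905, 824, 944 and 885, above all libraries of the other groups, and the libraries labelled VAD *Stra6-/-* had 432, 519, 559, 500.3 and 485, the lowest group. It differed by -0.81 on the log2 scale between the groups labelled *Stra6-/-* (SE 0.10, adjusted p = 5.28e-07, limma) and -0.32 against VAD WT (SE 0.10, adjusted p = 0.0106, limma), where the ranges overlapped. On the VAS diet it was 0.50 (SE 0.10). The interaction was -0.82 for *Ppard* (SE 0.14) and 0.61 for *Ppara* (SE 0.27).

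Of 10 listed partners and co-regulators, 2 were called higher than in VAD WT and 6 lower in the libraries labelled VAD *Stra6-/-*, with a list median of -0.43. The risers were *Ppargc1a*, a coactivator of mitochondrial genes (log2 fold change 2.5, SE 0.27, adjusted p = 9.74e-08, limma), and *Pparg*, the receptor known from fat cells (1.87, SE 0.28, adjusted p = 8.15e-06, limma). *Ppargc1a* was 688, 804, 665, 779 and 791 in those libraries and 84.9, 264, 90.8, 256 and 71.5 in VAD WT, where replicates 2 and 4 were again the high libraries. Without those 2 its log2 fold change was 3.16 (SE 0.12, adjusted p = 2.63e-15, limma). Among the fallers was the related coactivator *Ppargc1b* (-0.99, SE 0.19, adjusted p = 1.21e-04, limma). *Rxra*, the common PPAR partner, was called lower against VAS *Stra6-/-* (-1.10, SE 0.09, adjusted p = 4.13e-10, limma). On the VAS diet 5 of the 10 were called higher in *Stra6-/-* (15.9% of all genes) and none lower (10.8%), as a description. They were led by *Nrip1*, a corepressor of oxidation genes (2.38, SE 0.42).

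Lipoprotein lipase, the product of *Lpl*, frees fatty acids from circulating lipoproteins, and the protein made from *Angptl4* inactivates it. *Lpl* was 1076, 972, 933, 1023 and 927 in VAS WT and 659, 473, 834, 448 and 646 in VAD WT, lower in all 5 libraries. It was 722, 766, 762, 699 and 728 in VAS *Stra6-/-* and 1459.9, 1569.5, 1549.7, 1532 and 1976 in the libraries labelled VAD *Stra6-/-*. VAD against VAS by the labels thus had opposite signs. The log2 fold change was -0.72 in WT (SE 0.13, adjusted p = 6.85e-04, limma) and 1.13 between the groups labelled *Stra6-/-* (SE 0.13, adjusted p = 1.32e-07, limma). The interaction was 1.85 (SE 0.18). Without VAD WT replicates 2 and 4, the lowest libraries of their group, the WT value was -0.47 (adjusted p = 3.21e-04, limma). On the VAS diet the log2 fold change was -0.42 (SE 0.13), and against VAD WT the libraries labelled VAD *Stra6-/-* were higher by 1.43 (SE 0.13, adjusted p = 3.73e-09, limma).

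*Angptl4* followed another order. It was 211, 210.5, 174, 248 and 198 in VAS WT and 251, 607, 262, 574 and 328 in VAD WT. VAS *Stra6-/-* had 878, 881, 868, 903 and 813, and the libraries labelled VAD *Stra6-/-* had 1234, 1350.3, 1174, 1112 and 1015. The groups rose in that order without overlap. The log2 fold change was 2.06 (SE 0.19) on the VAS diet, 0.86 between VAD WT and VAS WT (SE 0.19, adjusted p = 0.00571, limma) and 1.64 between the VAD groups (SE 0.19, adjusted p = 2.46e-07, limma). Between the groups labelled *Stra6-/-* it was 0.43 (SE 0.19) and missed the threshold (adjusted p = 0.0636, limma). With only those 2 groups in the fit the adjusted p was 3.56e-04, and with VAD WT replicates 2 and 4 left out it was 4.41e-04 (limma), at the same fold change. The call between VAD WT and VAS WT was lost when only those 2 groups were fitted (adjusted p = 0.139, limma), and without VAD WT replicates 2 and 4 its log2 fold change was 0.43 (adjusted p = 0.00379, limma). *Lpl* and *Angptl4*, enzyme and inhibitor, were therefore both highest in the libraries labelled VAD *Stra6-/-*, while in VAS *Stra6-/-* *Angptl4* was above and *Lpl* below VAS WT.

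*Cd36* encodes a scavenger receptor and fatty acid translocase, which in the RPE binds photoreceptor outer segments. Its values were 179.7, 239, 188, 229 and 243 in VAS WT and 129.7, 222, 122, 155 and 44.2 in VAD WT, overlapping groups. They were 296, 324, 338, 269 and 226 in VAS *Stra6-/-* and 959, 867, 959, 843 and 864 in the libraries labelled VAD *Stra6-/-*, well above the rest. The log2 fold change of 2.90 against VAD WT (SE 0.27, adjusted p = 6.58e-09, limma) was the largest of the 9 genes, a 7.46-fold difference on the log2(value + 1) scale. Against VAS *Stra6-/-* it was 1.64 (SE 0.27, adjusted p = 2.04e-05, limma), and the interaction was 2.48 (SE 0.38). Between VAD WT and VAS WT it was -0.84 (SE 0.27) and just missed the threshold (adjusted p = 0.0539, limma). There it was called without VAD WT replicate 2 (-1.06, adjusted p = 0.00621, limma), without replicate 4 (-0.93, adjusted p = 0.0301, limma) and without both (-1.26, adjusted p = 2.73e-04, limma). On the VAS diet the log2 fold change was 0.42 (SE 0.27).

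Of 10 measured genes that partner lipoprotein lipase or clear lipoproteins, 4 were called higher and 3 lower between the VAD groups (4 and 1 without VAD WT replicates 2 and 4). *Apoe*, an apolipoprotein (log2 fold change 1.26, SE 0.12), and the lipoprotein receptor *Vldlr* (1.24, SE 0.14) rose, and both had been called lower in VAD WT than in VAS WT (-0.80 and -0.65). Of 12 genes of fatty acid uptake and activation, 4 rose and 6 fell (6 and 6 without VAD WT replicates 2 and 4), with a median of 0.01: the acyl-CoA synthetase *Acsl6* rose by 2.30 (SE 0.06) and *Acsl1* fell by 1.59 (SE 0.13), and the binding protein *Fabp5* fell by 1.75 (SE 0.20), all on the log2 scale.

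*Plin2* encodes perilipin 2, the coat protein of lipid droplets in most cells. It was 807, 754, 752, 707 and 747 in VAS WT and 634, 899, 654, 771 and 871 in VAD WT, with no shift between the diets (log2 fold change 0.01, SE 0.09, adjusted p = 0.975, limma). VAS *Stra6-/-* had 902, 927, 927, 919.7 and 1080.1, just above every library of VAS WT, and the libraries labelled VAD *Stra6-/-* had 2262, 1916, 2249, 2034 and 2425. For these last it was 1.52 against VAD WT (SE 0.09, adjusted p = 1.22e-11, limma) and 1.19 against VAS *Stra6-/-* (SE 0.09, adjusted p = 5.42e-10, limma), and the interaction was 1.18 (SE 0.13). On the VAS diet it was 0.33 (SE 0.09). Of 13 other droplet and lipolysis genes, 11 were called higher than in VAD WT and none lower in the libraries labelled VAD *Stra6-/-*, with a median of 0.93. *Plin5* and *Plin1*, coat proteins of oxidative tissue and of fat cells, had the largest fitted rises (2.37, SE 0.67, and 2.36, SE 0.79), *Plin5* at group means of 15.4 and 4.02. Without VAD WT replicates 2 and 4 they were 3.55 (SE 0.59) and 3.09 (SE 0.88), and 12 of the 13 were called higher, with a median of 1.45. Against VAS *Stra6-/-* 6 of the 13 were higher and 1 lower.

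Markers of several other cells were also high in the libraries labelled VAD *Stra6-/-*, but did not all follow *Plin2*, *Cd36* and *Lpl* elsewhere. Macrophages express all 3, and the sum of 8 macrophage markers was 5145 to 10094 across the first 3 groups and 26047 to 26846 in the libraries labelled VAD *Stra6-/-*, where 7 of the 8 were called higher than in VAD WT. Within VAD WT, replicates 2 and 4 had the higher macrophage sum (7085 and 6852), the higher *Cd36* and the lower *Lpl*, while *Plin2* overlapped. The sum of 9 adipocyte markers was 319 to 574 in the first 3 groups and 638 to 734 in the last, with 5 of 9 called higher. Of these, *Plin1*, *Cidec*, *Cidea*, *Fabp4* and *Pparg* also serve as lipid or receptor genes in the lists above, and *Adipoq*, the defining one, was 21.2, 32.5, 67.6, 32.5 and 38.9 there. It was 19.6 to 36.1 in VAS WT and 0 to 51.1 in VAD WT, which overlapped those libraries, and 9.14 to 17.3 in VAS *Stra6-/-*, below all of them. *Cfd*, another adipocyte marker, had values of 115 to 205 with the VAD *Stra6-/-* label. VAS WT reached 119, VAD WT 104.9 and VAS *Stra6-/-* 66.02. The sum of 8 endothelial markers was 12802 to 13337, against 7863 to 8677 in both VAS groups and 4733 to 14599 in VAD WT. The sum of 7 fibroblast and sclera markers was 202926 to 214275 in the libraries labelled VAD *Stra6-/-* and 38655 to 153794 across the other groups, with 7 of 7 called higher than in VAS *Stra6-/-* and 6 of 7 than in VAD WT. All 8 skeletal muscle markers were called higher than in VAD WT (median log2 fold change 1.83), their sum at 19897 to 24310 against 3557 to 14206, and 3 of them lower than in VAS *Stra6-/-*. No gene of these lists was at 0 in every library of a group. What part these cells, or the higher share of RPE markers, have in the levels of *Plin2*, *Cd36* and *Lpl* was not tested. In tissue of many cell types, more cells of a type and more RNA per cell cannot be told apart.

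*Cpt1a* encodes the carnitine acyltransferase that admits long-chain fatty acids to mitochondria. It was 2306, 2382, 2313, 1985 and 2340.5 in VAS WT and 2967, 2531, 2859, 2761 and 2726 in VAD WT. VAS *Stra6-/-* had 2687, 2645, 2810.4, 2677 and 2735, and the libraries labelled VAD *Stra6-/-* had 3220.0, 3469, 3527, 3925 and 3550.4. VAS WT was the lowest group and the last the highest, without overlap, and the range of VAS *Stra6-/-* lay inside that of VAD WT. The steps were small. The log2 fold change was 0.29 between VAD WT and VAS WT (SE 0.06, adjusted p = 0.00528, limma). Between the groups labelled *Stra6-/-* it was 0.38 (SE 0.06, adjusted p = 3.13e-05, limma). It was 0.35 between the VAD groups (SE 0.06, adjusted p = 7.49e-05, limma) and 0.26 on the VAS diet (SE 0.06). The interaction was 0.09 (SE 0.09).

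*Acadm*, the medium-chain acyl-CoA dehydrogenase that opens each round of oxidation, ran the other way. It was 2649.6, 2880.2, 2607, 2963 and 2602 in VAS WT and 2491, 2513, 2450.4, 2433 and 2512 in VAS *Stra6-/-*, a tight group just below (log2 fold change -0.14, SE 0.12). VAD WT had 3425, 2146, 3336, 1998 and 3217, with replicates 2 and 4 below and the other 3 above every library of both VAS groups. The libraries labelled VAD *Stra6-/-* had 1801, 1794, 1885, 1521 and 1705, the lowest group. That last group stood at a log2 fold change of -0.66 against VAD WT (SE 0.12, adjusted p = 7.47e-05, limma) and -0.51 against VAS *Stra6-/-* (SE 0.12, adjusted p = 0.00107, limma), and the interaction was -0.52 (SE 0.17). Between VAD WT and VAS WT it was 0.01 (SE 0.12), and 0.28 without VAD WT replicates 2 and 4 (adjusted p = 7.86e-04, limma). Within VAD WT the surface epithelium and cornea sum was 354583 and 351779 in replicates 2 and 4 and 967099 to 995773 in the others. In the libraries labelled VAD *Stra6-/-* it was lowest, at 25248 to 33146. The part of this tissue in the *Acadm* and *Ppard* values was not tested.

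Other genes of the pathway went up where *Acadm* went down. Of 20 other genes of mitochondrial fatty acid oxidation, 17 were called higher and 1 lower between the VAD groups, with a median log2 fold change of 0.78 against -0.05 for all genes. The largest rises were in *Decr1*, which handles unsaturated chains (1.70, SE 0.08), and *Eci1*, an isomerase (1.45, SE 0.08). The acyl-CoA dehydrogenases for very long, long and short chains, singled out after their values were seen, all rose: *Acadvl* by 0.65 (SE 0.07), *Acadl* by 0.52 (SE 0.10) and *Acads* by 1.19 (SE 0.12). The faller was *Cpt1b*, the muscle form of the *Cpt1a* enzyme (-1.01, SE 0.20, adjusted p = 1.99e-04, limma). In VAD WT against VAS WT 1 of the 20 was called higher and none lower (3 and 5 without VAD WT replicates 2 and 4), and on the VAS diet 3 were higher in *Stra6-/-* and 1 lower. The uncoupling protein gene *Ucp3* led the rises of the VAS comparison (2.44, SE 0.28), where all 8 skeletal muscle markers were called higher too. Their sum was 30654 to 34434 in VAS *Stra6-/-* and 11868 to 14328 in VAS WT. The part of muscle in the *Ucp3* value was not tested. Of 13 genes of peroxisomal and microsomal oxidation, 7 rose and 4 fell between the VAD groups, with catalase (*Cat*, 1.99, SE 0.10) among the risers and the carnitine transferase *Crot* (-1.48, SE 0.19) among the fallers.

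The kinase made from *Pdk4* shuts the pyruvate dehydrogenase complex and so turns cells from glucose to fat. *Pdk4* was 43.2, 75.9, 72.0, 89.8 and 83.0 in VAS WT and 74.3, 229, 68.1, 225 and 74.1 in VAD WT. It was 453, 363, 421, 348 and 304 in VAS *Stra6-/-* and 424, 411, 373, 378 and 446 in the libraries labelled VAD *Stra6-/-*, 2 groups that overlapped (log2 fold change 0.12, SE 0.30, adjusted p = 0.777, limma). All of these lay above all WT libraries. Its log2 fold change was 2.39 (SE 0.30) on the VAS diet and 1.82 between the VAD groups (SE 0.30, adjusted p = 2.27e-05, limma). Between VAD WT and VAS WT it was 0.68 (SE 0.30, adjusted p = 0.178, limma), and without VAD WT replicates 2 and 4 it was 0.03 (adjusted p = 0.94, limma). Of its sister kinases, *Pdk3* and *Pdk2* rose in the libraries labelled VAD *Stra6-/-*, by 1.59 (SE 0.17, adjusted p = 4.65e-08, limma) and 0.77 (SE 0.07, adjusted p = 3.50e-09, limma) against VAD WT, and were not called on the VAS diet (0.21, SE 0.17, and -0.07, SE 0.07). *Pdk1* was called lower against VAD WT (-0.21, SE 0.08, adjusted p = 0.0447, limma) and was not called on the VAS diet (-0.01, SE 0.08). *Pdp2*, a phosphatase that undoes the kinases' work, fell by 1.17 on the log2 scale between the VAD groups (SE 0.24) and in VAS *Stra6-/-* was above VAS WT by 1.08 (SE 0.24). Of the 11 genes of the list, 6 were higher and 2 lower between the VAD groups.

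*Angptl4* and *Pdk4* are also textbook targets of the glucocorticoid receptor, and *Angptl4* of the hypoxia response, so lists for both were set beside them. In VAD WT both genes were high in replicates 2 and 4 and low in the other 3. *Angptl4* was 574 to 607 in those 2 and 251 to 328 in the others, and *Pdk4* 225 to 229 against 68.1 to 74.3. The glucocorticoid-responsive *Fkbp5*, which encodes a co-chaperone of the receptor, was 479.8, 2362, 464, 2303 and 364 in these libraries, 276 to 424 in VAS WT, 3088 to 3749 in VAS *Stra6-/-* and 1650.3 to 1952 in the libraries labelled VAD *Stra6-/-*. *Zbtb16*, another such gene, was 29.5, 262, 28.4, 296 and 22.1 in VAD WT, 6.87 to 47.1 in VAS WT, 267 to 345 in VAS *Stra6-/-* and 137 to 247 in the libraries labelled VAD *Stra6-/-*. For both genes, as for *Pdk4*, VAD WT replicates 2 and 4 lay above the other 3 and above VAS WT. They also lay above every library labelled VAD *Stra6-/-*, whereas for *Pdk4* they lay below them all. The groups labelled *Stra6-/-* were apart in both genes, higher on the VAS diet, and overlapped in *Pdk4*.

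The same 2 libraries differed in other ways. They had the high *Xist* values, *Ddx3y* at 75.2 and 80.5 against 1041 to 1133, a muscle marker sum of 13384 and 14206 against 3557 to 3747, and an endothelial sum of 13908 and 14599 against 4733 to 4984. Their surface epithelium and cornea sum was 351779 and 354583 against 967099 to 995773. The part that any of these has in *Angptl4* and *Pdk4* was not tested. Of 9 glucocorticoid-responsive genes, 7 were called higher (15.9% of all genes) and none lower (10.8%) in *Stra6-/-* on the VAS diet. Their median log2 fold change was 1.42, against 0.02 for all genes. The largest were *Zbtb16* (3.91, SE 0.61) and *Fkbp5* (3.33, SE 0.38), as a description. Between the VAD groups 7 of 9 were higher as well (median 1.34), and without VAD WT replicates 2 and 4 all 9 were (median 2.03). In VAD WT against VAS WT 2 of the 9 were higher and 1 lower (median 0.44). Without VAD WT replicates 2 and 4 it was 2 higher and 5 lower (median -0.61, against -0.02 for all genes). The sum of the 9 was 27838 and 28352 in VAD WT replicates 2 and 4 and 10764 to 11024 in replicates 1, 3 and 5. Of 9 hypoxia-responsive genes, 4 were higher and 1 lower on the VAS diet, again as a description, with *Adm*, a vasodilator peptide, at 1.67. Between the VAD groups 4 were higher and 2 lower, *Vegfa*, the vessel growth factor, up by 2.03 (SE 0.09) and *Egln3*, an oxygen-sensing hydroxylase, down, at -4.78 (SE 0.27). Without VAD WT replicates 2 and 4, *Egln3* was -5.49 (SE 0.05) and 6 of the list were higher and 2 lower.

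**Figure D3:**
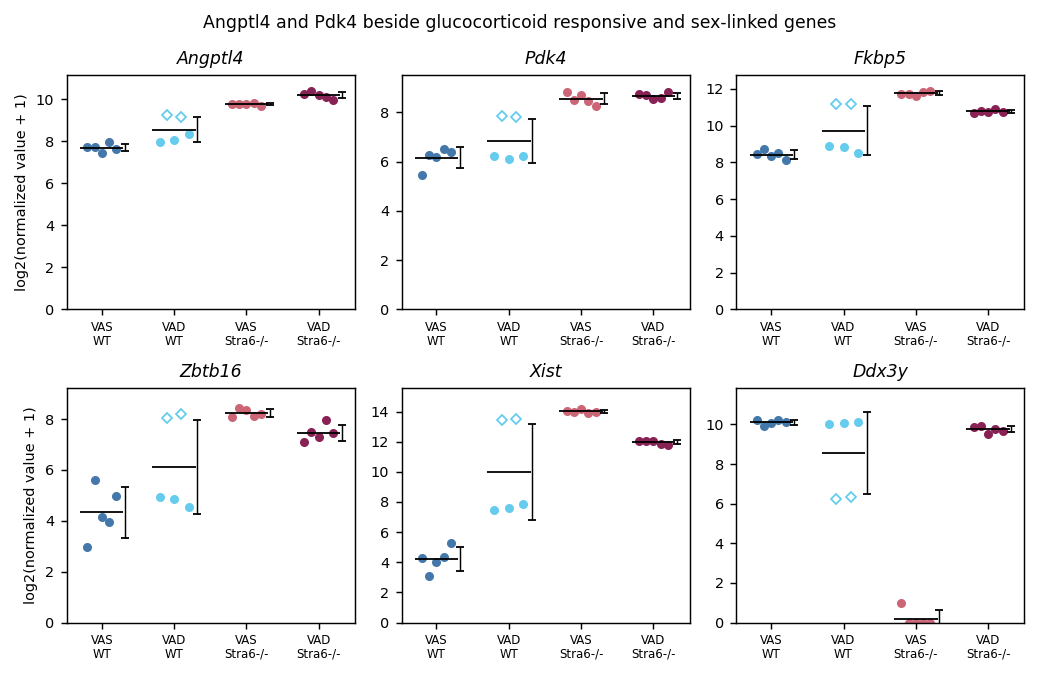
log2(normalized value + 1) (vertical axis) of *Angptl4*, *Pdk4*, the glucocorticoid-responsive *Fkbp5* and *Zbtb16*, and the sex-linked *Xist* and *Ddx3y* in the 20 libraries; points are libraries, open diamonds VAD WT replicates 2 and 4, lines group means and bars 1 SD. In *Angptl4*, *Pdk4*, *Fkbp5*, *Zbtb16* and *Xist* the diamonds lie above the other 3 VAD WT libraries, and in *Ddx3y* (75.2 and 80.5) below them.

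The genes of ketone body synthesis and use were taken as 1 list of 7. *Slc16a1* encodes the monocarboxylate transporter that carries ketone bodies and lactate across RPE membranes. It was 1378 to 1889.7 in VAS WT, 565, 1728, 463, 1782 and 502 in VAD WT, 1859.7 to 2142 in VAS *Stra6-/-* and 12384 to 13959 in the libraries labelled VAD *Stra6-/-*, a log2 fold change of 3.97 against VAD WT (SE 0.28, adjusted p = 1.33e-10, limma). Against VAS *Stra6-/-* it was 2.72 (SE 0.28, adjusted p = 4.78e-08, limma), and on the VAS diet 0.35 (SE 0.28). Within VAD WT, replicates 2 and 4 were again the high libraries, at the level of VAS WT, and the other 3 lay below every VAS WT library. Against those 3 alone the log2 fold change of the libraries labelled VAD *Stra6-/-* was 4.68 (SE 0.09, adjusted p = 1.52e-20, limma).

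Among the others, the thiolase *Acat1* rose by 1.14 between the VAD groups (SE 0.07), the transporter *Slc16a6* by 0.40 (SE 0.12) and *Oxct1*, which starts the use of ketone bodies, by 0.36 (SE 0.11), on the log2 scale. *Bdh1*, the dehydrogenase that interconverts the 2 main ketone bodies, was not called (-0.02, SE 0.09, adjusted p = 0.895, limma). In all, 6 of the 7 were higher between the VAD groups and none lower. On the VAS diet none was higher and *Acat1* was lower (-0.21, SE 0.07), and in VAD WT against VAS WT only *Slc16a6* was called, lower (-0.58, SE 0.12). Without VAD WT replicates 2 and 4, 3 were called lower there, *Slc16a1* among them (-1.62, SE 0.09, adjusted p = 1.10e-11, limma). These rises accompany the RPE marker sum, which was also highest in the libraries labelled VAD *Stra6-/-* and, within VAD WT, higher in replicates 2 and 4 (67785 and 64884) than in the other 3 (33622 to 36049). Its part in them was not tested.

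**Figure D4:**
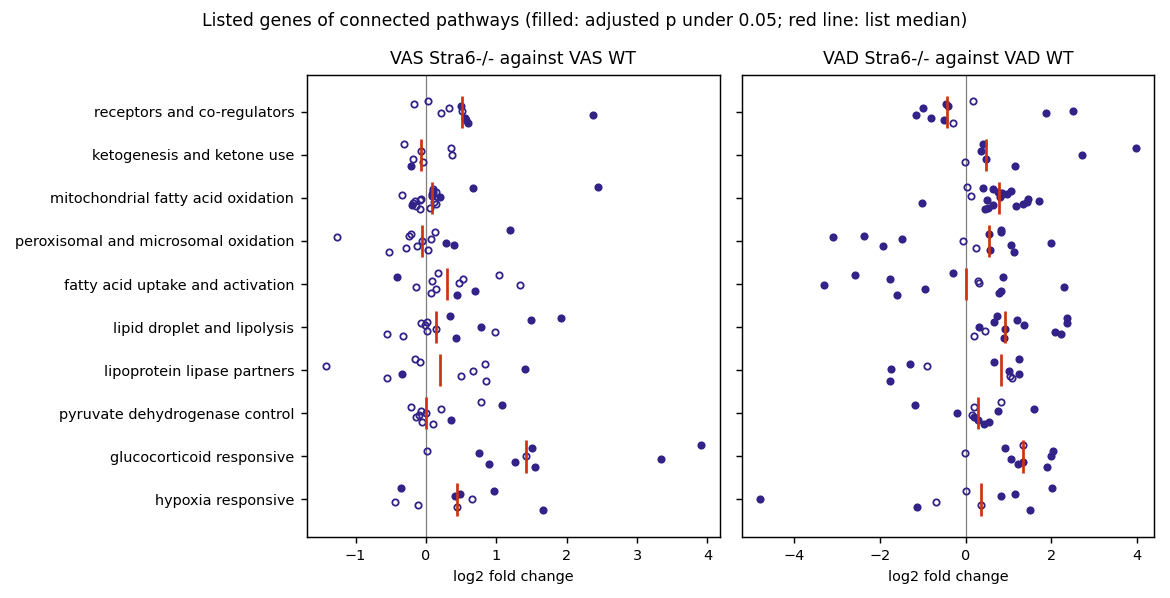
Log2 fold change (horizontal axis) of each measured gene in 10 lists, for VAS *Stra6-/-* against VAS WT and for the libraries labelled VAD *Stra6-/-* against VAD WT; filled points have an adjusted p under 0.05 (limma), open points do not, and the red line is the list median. On the left, given as a description, the glucocorticoid-responsive list lies farthest right (median 1.42) and mitochondrial fatty acid oxidation near 0. On the right mitochondrial fatty acid oxidation has its median at 0.78 and lipid droplet genes at 0.93.

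Over all 20 libraries, the genes most like each of the 9 were sought by Pearson's correlation of log2(value + 1) among genes with a mean value of at least 10. Libraries of a group share their diet and label, so these correlations mostly follow the 4 group means and are a description. *Plin2* was closest to *Smpdl3a* (r = 0.98), *Yipf5* and *Ak3*, *Cd36* to *Sult1c1* (0.98) and *Atp7a*, and *Lpl* to *Bsg* (0.97), *Slc6a13* and *Slc25a39*. *Angptl4* was closest to *Mtpn* (0.98), *Gclc* and *Cd14*, and *Pdk4* to *Eif2s3x* (0.98), an X-linked gene, *Uap1* and *Cry1*. *Cpt1a* had *Fam98b* (0.92), *Ubb* and *Parva* nearest, *Acadm* had *Trim12a* (0.98), *1600014C10Rik* and *Necap2*, and *Ppard* had *Prpf4* (0.93), *Cnot1* and *Fam160a1*. *Ppara* had no close match, with *Kank1* (0.77), *Phldb2* and *Cdk17* at the top.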

How the data were processed

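RNA-seq values of RPE–choroid from 20 samples were used, 4 groups of 5 by the labels. Per the labels, the authors aligned reads with STAR 2.5.3a, counted them per gene with RSEM 1.2.30 and used DESeq2 1.32.0, on GRCm38/mm10. What the authors deposited is a signal per gene: its count over 1 size factor per sample, without log or length scaling. Within 19 libraries the values are whole multiples of 1 read, within a tolerance of 0.01. That could not be shown for VAD *Stra6-/-* replicate 1 (as labelled), which was left out of the tests on reads.

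The values were tested with limma 3.58.1 (R 4.3.3) on log2(value + 1), with a mean per group, an intensity trend and all 20 libraries, which shrinks fold changes of low genes. Genes with at least 5 recovered reads in all were kept. Lists were described by counts and medians, without set tests. Genes to name were the 9, *Stra6*, the ketone genes, the 3 genes most like each of the 9 and, per list, comparison and direction, up to 2 called genes with the largest change, a group mean of at least 10 and no overlap. The 9 genes and the lists were chosen with earlier results of these data known, so adjusted p-values describe single genes. *Angptl8* was listed but has no entry in the table. The single values of some genes that this rule names are not reported here. Exon lengths and gene positions came from GENCODE vM21 and promoters from RefSeq, and no exon of the 9 genes overlaps one of another gene. Alternatives were pseudocounts of 0.5 and 4, other filters, TMM rescaling, edgeR 4.0.16 and DESeq2 1.42.0 on recovered reads, fewer groups or libraries and a replicate block. The steps were tested on simulated data. P-values measure the spread between libraries, whether or not each is 1 mouse as the study's methods state.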

Additional observations from a re-analysis of the deposited data

Results flagged for a closer look

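In 36 sets of 5 libraries (9 genes in 4 groups) 3 had a library far from the other 4 by Dixon's test, where chance gives about 1 in 20. *Cpt1a* was lowest in VAS WT replicate 4 at 1985, with a gap to the next library of 0.81 of the group's range. *Plin2* was highest in VAS *Stra6-/-* replicate 5 at 1080.1, with a gap of 0.86 of the range. *Lpl* was highest in replicate 5 of the libraries labelled VAD *Stra6-/-* at 1976, with a gap of 0.79 of the range.

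The genotype-by-diet interaction, on the log2 scale, stood out for 5 of the 9 genes: *Cd36* by 2.48, *Lpl* by 1.85 and *Plin2* by 1.18 toward higher values in the libraries labelled VAD *Stra6-/-*, and *Ppard* by -0.82 and *Acadm* by -0.52 toward lower ones. Of all genes 44.2% were past the same threshold. The term contains the comparison on the VAS diet that was known when the genes were chosen, so these values are a description. They also rest on libraries in which *Stra6* goes against the label.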

How the results depend on the processing

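Counts of the 9 genes called changed most with a fold change threshold. With a log2 fold change beyond 1 as well, 2 were called in VAS *Stra6-/-* against VAS WT (4.92% of all genes), 0 in VAD WT against VAS WT (1.74%; 3 by the adjusted p alone in limma, 5 by DESeq2), 3 between the groups labelled *Stra6-/-* (23.9%), 5 between the VAD groups (26.9%) and 3 in the interaction (24.5%). In VAD WT against VAS WT, 5 were called by DESeq2 on recovered reads (11.4% of all genes) and 5 without VAD WT replicates 2 and 4, where 37.9% of all genes were called. Libraries were also left out singly, and brackets give calls higher, then lower, among all 18807 genes in the same fits. Counts of the 9 ranged from 6 to 7 in VAS *Stra6-/-* against VAS WT (2627 to 3279, 1653 to 2296). They were 3 to 4 in VAD WT against VAS WT (443 to 1180, 810 to 1471). Between the groups labelled *Stra6-/-* they were 6 to 7 (4356 to 4821, 5135 to 5587). They stayed at 9 between the VAD groups (4671 to 5178, 5322 to 5730). In the interaction they were 5 to 6 (3467 to 3978, 4434 to 4881).

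The sign changed in 15 values with 1 library left out and in 4 under other settings, none of them called (lowest adjusted p = 0.54, limma). *Ppara* on the VAS diet was -0.0031 by edgeR and ranged from -0.13 (without VAS WT replicate 5) to 0.19 with single libraries left out. In VAD WT against VAS WT the same ranges were -0.051 (without VAD WT replicate 2) to 0.074 for *Plin2*, -0.071 (without VAD WT replicate 1) to 0.12 for *Acadm* and -0.053 (without VAD WT replicate 5) to 0.075 for *Ppard*. Without VAD WT replicates 2 and 4, *Plin2* was -0.080 there, and the interaction was 0.0060 for *Angptl4* and 0.088 for *Pdk4*. The cause was not tested. *Pdk4* was called in VAD WT by DESeq2 (0.89, adjusted p = 0.0316).

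Libraries of different groups showed no likeness by replicate number. Of 30 same-numbered pairs 0 had a correlation of deviations over 0.1 (range -0.13 to 0.09), and 2 of 20 libraries were closest to one of the same number. A shared litter or batch is not excluded by this. The replicate block gave 6 called genes on the VAS diet (25.6% of all genes), 3 in VAD WT against VAS WT (7.69%), 7 between the groups labelled *Stra6-/-* (52.8%), 9 between the VAD groups (55.4%) and 5 in the interaction (43.6%), and with it *Angptl4* was called between the groups labelled *Stra6-/-* (adjusted p = 0.042, limma). The lowest value among the 9 genes in any library was 43.2 (*Pdk4*, VAS WT replicate 1), where the added 1 shrinks fold changes most.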
